A study of Mus musculus with 2 samples.

Results

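Chromosome 11 carried 696 of the 7893 peaks that the authors called for the transcription factor p53 in the kidney of mouse embryos at E15.5 (days after conception), more than any other chromosome. The peaks described here are all those that the deposited list places on chromosome 11, in the mm9 build of the mouse genome. They made up 8.82% of the list and 8.96% of its autosomal peaks. The other 18 autosomes together held 7075 peaks. The list comes from chromatin immunoprecipitation followed by sequencing (ChIP-seq), in which proteins are crosslinked to DNA with formaldehyde, an antibody recovers the fragments held by 1 protein, and the recovered DNA is sequenced. The kidneys were wild type and of the C57BL strain. The labels do not give the number of kidneys behind a library. The series sets 1 p53 library beside 1 library of input DNA of the same strain, genotype and age. Only the peak list of the p53 library was analysed here.

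p53 is a transcription factor that binds DNA as a tetramer, at sites built from repeated copies of a short half-site. It is best known for switching on genes of cell cycle arrest, DNA repair and apoptosis after damage. In the embryonic kidney of this age, nephrons are still forming from progenitor cells. Chromosome 11 is among the gene-rich mouse chromosomes. The RefSeq gene table assigns to it Trp53, the gene of p53 itself, the Hoxb cluster of body-pattern regulators, and Lhx1 and Wnt9b, which are known regulators of kidney and nephron formation. That table is of another assembly, GRCm38.p6, so no peak was tied to a gene, and no DNA sequence of a peak is shown.

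The chromosome was chosen by its number of peaks in this list, so peak number and density are descriptions with no test. With 1 library there is no replicate error. Intervals are 95% intervals that cover counting error only. They take each peak as its own observation, although close peaks may share signal. For many values the place among the 19 autosomes is given too. The score of a peak is the authors' own value from the peak caller MACS, where a higher score means a lower p-value, and its exact scale is not stated in the file. It ran from 60.03 to 3100 on chromosome 11, and 3100 is the highest value in the list, shared by 15 peaks.

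Between its first and last peak chromosome 11 spanned 118.6 Mb and held 5.87 peaks per Mb (5.44 to 6.32). The other autosomes pooled held 3.11 per Mb (3.04 to 3.19), so the ratio was 1.88. The next autosomes in this order were chromosome 19 with 5.02 (4.46 to 5.63) and chromosome 17 with 4.41 (3.99 to 4.86), and the intervals of chromosomes 11 and 19 overlapped. In peak number, chromosome 2 came next with 609. Set against genes the order changed. Chromosome 11 held 43.3 peaks per 100 protein-coding genes (40.1 to 46.6) and chromosome 8 held 43.7 (39.8 to 47.9), with overlapping intervals. The other autosomes pooled held 37.1 (36.3 to 38.0). By the same table chromosome 11 carried 13.6 protein-coding genes per Mb of span, where the others pooled carried 8.39. Chromosome 7 also carried 13.6, with 3.97 peaks per Mb, and chromosomes 19 and 17 carried 12.2 and 11.5. Peaks covered 0.598% of the chromosome 11 span and 0.296% of the span of the others.

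The typical 5 Mb bin of chromosome 11 held more peaks than that of any other autosome. The peaks of chromosome 11 were spread no more unevenly than those of most autosomes. The chromosome was divided into 25 bins of 5 Mb by peak midpoint, and the 23 bins between the first and the last count as full bins. Full bins held 2 to 70 peaks with a median of 22 and quartiles of 11 and 39.5. On the other autosomes 442 full bins had a median of 11, with quartiles of 6 and 20. Of the 23 full bins on chromosome 11, 17 held more than the median of the others, 14 more than their upper quartile and 8 more than their 90th percentile of 32.9. The median was the highest of the 19 autosomes, with chromosome 19 next at 17. Single bins elsewhere held more: 82 peaks on chromosome 17 and 76 on chromosome 19. Bins with 5 peaks or fewer were 8.7% of the full bins on chromosome 11 and 23.98% of those elsewhere. Bins with over 40 peaks were 26.1% and 6.33%. The densest 20% of full bins held 47.1% of the peaks in full bins, 12th highest of the 19 autosomes. The standard deviation of peaks per full bin over their mean was 0.737 on chromosome 11, 16th highest of the 19. On the others it ran from 0.661 to 1.12. With the densest 20% of full bins of each autosome left out, the full bins left on chromosome 11 held 3.81 peaks per Mb and those on the other autosomes 1.51 to 3.11.

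**Figure D1:**
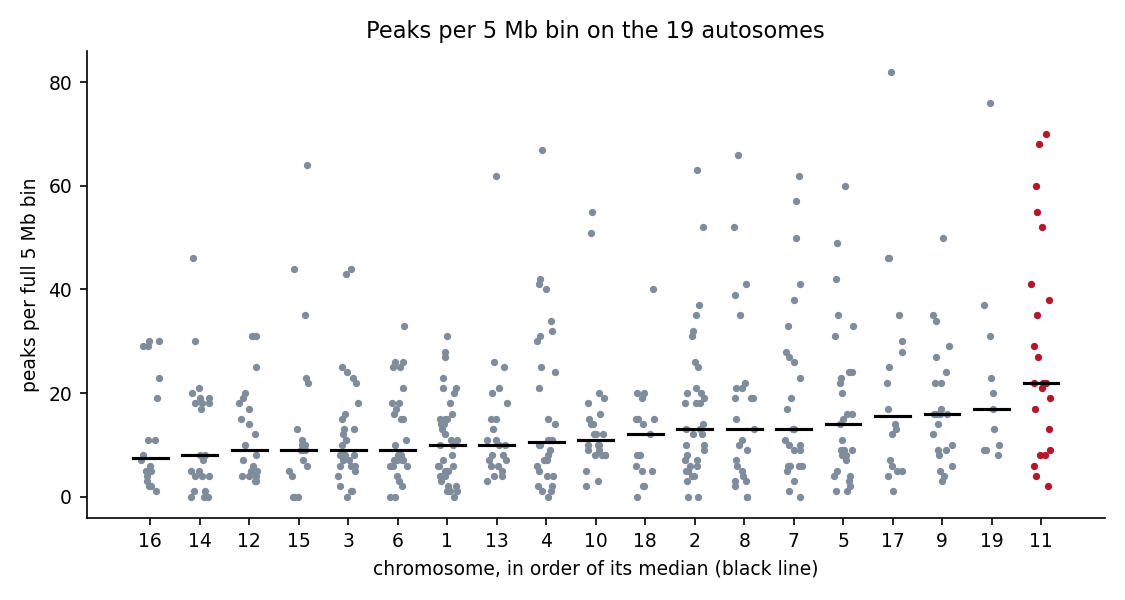
Peaks per full 5 Mb bin (vertical axis) on each of the 19 autosomes, in order of the median, with 1 point per bin and a black line at the median. Chromosome 11, in red, stands at the right with a median of 22, and its bins reach from 2 to 70.

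Along the chromosome the peaks were fewer per Mb in the first 50 Mb, taken as a whole, than in most of the rest. Mouse autosomes have their centromere at the low-coordinate end. From the start to 50 Mb there were 116 peaks, or 2.47 per Mb (2.04 to 2.97), below the 3.11 of the other autosomes pooled. Within this part the stretch from 25 to 50 Mb was sparse, with 44 peaks, or 1.76 per Mb (1.28 to 2.36). Nearer the centromere the numbers were mixed. The bins from 5 to 10 Mb and from 20 to 25 Mb held 22 and 21 peaks, and those from 10 to 15 Mb and from 15 to 20 Mb held 6 and 8. From 50 to 95 Mb there were 305, or 6.78 per Mb (6.04 to 7.58). From 95 to 105 Mb there were 138, or 13.8 per Mb (11.6 to 16.3), in the 2 fullest bins of the chromosome, which held 70 and 68 peaks. The interval does not allow for the choice of the fullest bins. Then the number fell and rose again. There were 35 peaks from 105 to 110 Mb, 9 from 110 to 115 Mb and 60 from 115 to 120 Mb. The last bin, which the peaks entered for only 1.71 Mb, held 33, or 19.3 per Mb (13.3 to 27.1) over the part from 120 Mb to the last peak. Of all chromosome 11 peaks, 70.5% lay beyond 65 Mb.

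The emptiest full bins were those from 35 to 40 Mb, with 2 peaks, from 40 to 45 Mb, with 4, and from 10 to 15 Mb, with 6. Their highest-scoring peaks scored 80.98 at 35814712 to 35815245, 248 at 40546727 to 40547793 and 141 at 11708353 to 11709565. The highest-scoring peaks of the 3 fullest bins scored 642 (96838238 to 96839654), 578 (101488152 to 101489646) and 701 (119959801 to 119960520). A maximum over more peaks tends to be higher by number alone, but need not be. Neither of the peaks at 3100 lay in the 3 fullest bins.

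The longest stretch without a peak ran for 4.66 Mb, from 35850356 to 40507878. The next ran for 4.47 Mb (11938140 to 16407932), 3.25 Mb (90499869 to 93746371), 2.79 Mb (40547794 to 43342157) and 2.71 Mb (110312196 to 113026281). The peaks at the edges of these 5 stretches scored 64 to 248. Of the other autosomes, the one with the shortest longest stretch was chromosome 9 at 3.53 Mb, and the longest of all was 12.2 Mb on chromosome 15. Stretches of more than 1 Mb took up 39.1% of the chromosome 11 span, and among the other autosomes this share ran from 33.6% on chromosome 19 to 63.5% on chromosome 3. The median distance between consecutive midpoints was 52.8 kb, next to 51.97 kb on chromosome 17 and 92.3 kb over the other autosomes.

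**Figure D2:**
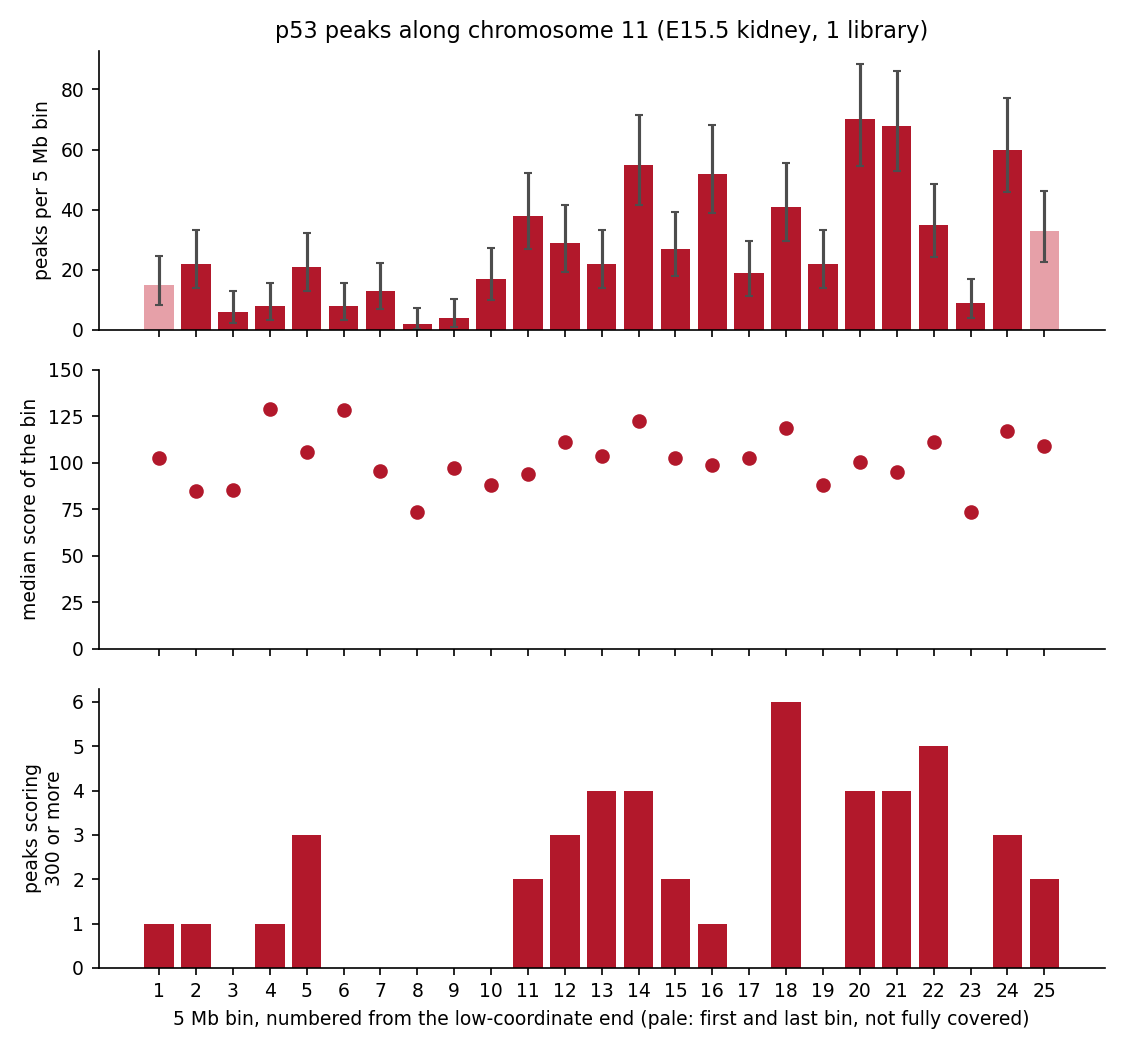
Peaks (top, with 95% Poisson intervals), median score (middle) and peaks scoring 300 or more (bottom) in each 5 Mb bin of chromosome 11, with bins numbered from the low-coordinate end. Peak numbers are highest in bins 20 and 21, with 70 and 68 peaks, and lowest in bin 8 with 2. The median score is not highest in the fullest bins. Its lowest values are 73.35 in bin 23, with 9 peaks, and 73.4 in bin 8.

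Peak scores on chromosome 11 lay toward the upper end of the autosomal range. The median score was 102 (96.2 to 108), second to the 104 of chromosome 17, where the other autosomes pooled had 96.6 (95.04 to 98.2) and single autosomes ran from 91.0 upward. The intervals overlapped. Among peaks with no other midpoint within 10 kb, the median score of chromosome 11 ranked 5 of the 19 autosomes. Over all peaks the upper part of the distribution stood higher in value. The upper quartile was 160 on chromosome 11 and 142 on the other autosomes pooled, and the 90th percentiles were 248 and 218. Both chromosome 11 values were the highest of the 19 autosomes, with chromosome 17 next at 153 and 246. Peaks scoring at least 100 were 358, or 51.4% (47.7 to 55.2), compared with 47.5% (46.3 to 48.7) on the others. Those scoring at least 300 were 46, or 6.61% (4.88 to 8.72), compared with 4.76% (4.28 to 5.29), and chromosome 12 had the highest share at 6.76%. The higher share on chromosome 11 lay in peaks with another midpoint within 10 kb. Peaks scoring at least 300 with such a neighbour were 3.02% of all chromosome 11 peaks and 1.09% of those on the others. Those without one were 3.59% and 3.67%. At 1000 or more there were 4 peaks, 0.575% (0.157 to 1.46), next to 0.551% on the others.

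Bins with many peaks did not have clearly higher median scores. Over the 21 full bins of chromosome 11 with at least 5 peaks, the median score ran from 73.4 to 129, and Spearman's rho between peak number and median score was 0.17. Over 361 such bins of the other autosomes it was 0.14. For the share of peaks scoring at least 100, rho was 0.46 on chromosome 11 and 0.18 elsewhere. These are descriptions across bins of 1 library, and neighbouring bins are not independent.

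The 10 highest-scoring peaks of the chromosome were spread over 6 of the 5 Mb bins. The 2 peaks at 3100 ran from 69804159 to 69805705 (1547 bp) and from 106076803 to 106078756 (1954 bp). The one near 69.8 Mb had another peak 4.11 kb away, midpoint to midpoint, and the one near 106.1 Mb had its nearest at 22.7 kb. The next, scoring 1366, ran from 17058746 to 17060758 in a bin of 8 peaks, and its nearest neighbour lay 651 kb away. Among the 10 it was the most isolated. The fourth, at 1233, ran from 106133705 to 106134961, so that 2 of the 4 peaks above 1000 lay 56.6 kb apart.

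The remaining 6 scored 635 to 883. Those at 883 (87235752 to 87237338) and 788 (87239779 to 87240869) were neighbours 3.78 kb apart. The other 4 scored 701 (119959801 to 119960520), 669 (86921600 to 86924292), 642 (96838238 to 96839654) and 635 (68907883 to 68908970). Their widths differed widely at like scores. The peak at 701 was 720 bp wide and the peak at 669 was 2693 bp, the fourth widest of the chromosome.

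High-scoring peaks lay close to one another. Per 100 Mb of span chromosome 11 held 38.8 peaks scoring at least 300 (28.4 to 51.7), compared with 14.8 (13.3 to 16.5) on the others pooled. The next were chromosome 17 with 26.1 (16.7 to 38.8) and chromosome 7 with 24.8 (17.5 to 34.2), whose intervals overlap that of chromosome 11. This rate rises with the density of all peaks, and the chromosome was chosen by its peak number. Of the 46, 18 (39.1%) lay within 100 kb of another such peak, compared with 10.4% on the other autosomes, where chromosome 13 reached 41.2%. Within 1 Mb the shares were 84.8% and 44.2%. A chromosome with more such peaks per Mb tends to have more of them close together also when they are placed at random. The part of this in the values was not tested. These 46 peaks fell in 16 of the 25 bins, and the 9 bins with none included the run of 5 bins from 25 to 50 Mb.

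The run of 5 or more peaks, each within 50 kb of the next, that had the highest median score lay near 87.2 Mb, a group chosen after its values were seen. From 87217668 to 87285334, over 67.7 kb, 8 peaks scored 80.2, 883, 788, 412, 580, 215, 120 and 327 in order of position. So 5 of the 8 reached 300, and the group's median score was 369, where the chromosome's was 102. Of the 5, all but the 1587 bp peak scoring 883 were narrower than the median of their score class. They ran from 347 to 1587 bp with a median of 684 bp, next to a median of 1528 bp over all 46 chromosome 11 peaks of that class. The last of them, 347 bp wide at a score of 327, was among the 5 narrowest peaks of the chromosome. Without this group 31.7% of the high-scoring peaks lay within 100 kb of another, and 80.5% within 1 Mb.

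Peaks were wide on chromosome 11. The median width was 945 bp (901 to 984), the highest of the 19 autosomes, compared with 870 bp (859 to 881) on the others pooled and 937 bp (888 to 975) on chromosome 17, the next. The upper quartiles were 1243 and 1137 bp. Below a score of 100 the intervals overlapped, with medians of 742.5 bp (708 to 771) on chromosome 11 and 728 bp (718 to 738) elsewhere. From 100 to below 300 they were 1097 bp (1057 to 1158) and 1032 bp (1015 to 1049), and chromosome 11 had the highest median of the 19. Its median score in that class was also the highest, 148 compared with 139 on the others pooled, with overlapping intervals. When that class was split by whether another peak lay within 10 kb, the width intervals overlapped in both parts. Chromosome 11 then ranked 3 of the 19 in median width without such a neighbour and 5 with one. At 300 or more the median widths were 1528 bp (1257 to 1877) and 1382 bp (1298 to 1514), with overlapping intervals. Among peaks with no other within 10 kb the medians were 927 bp (862 to 977) and 859 bp (848 to 872), and chromosome 11 came second. Score and width rose together on chromosome 11 (Spearman's rho of 0.59 across its 696 peaks), as on the others (0.56).

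**Figure D3:**
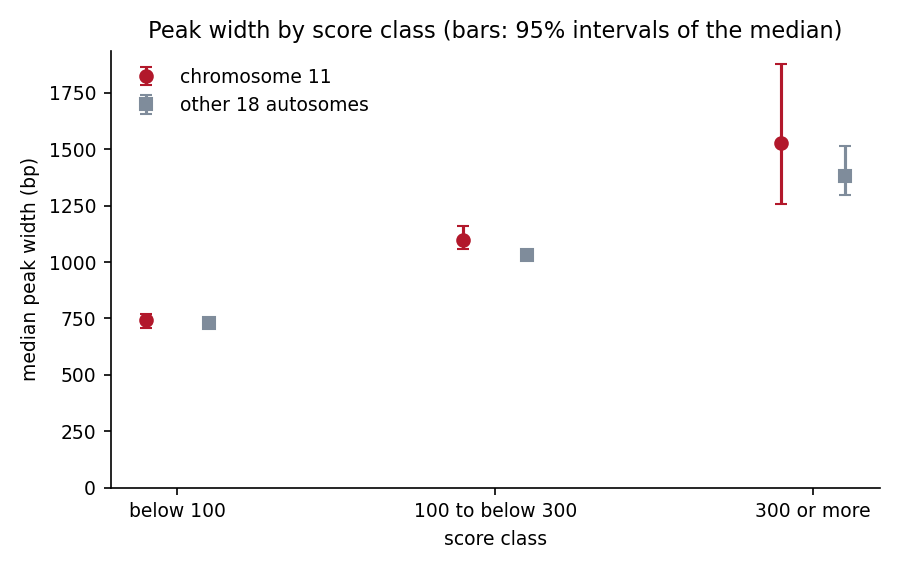
Median peak width in bp (vertical axis) in 3 score classes, for chromosome 11 (red circles) and the other 18 autosomes pooled (grey squares), with 95% intervals of the median. The medians are 742.5 and 728 bp below a score of 100 and 1097 and 1032 bp from 100 to below 300, where the intervals do not overlap. Median scores in the latter class were 148 and 139.

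The 5 widest peaks of the chromosome were 4564 bp (62415798 to 62420361), 3627 bp (96212644 to 96216270), 2865 bp (69733032 to 69735896), 2693 bp (86921600 to 86924292) and 2471 bp (4998362 to 5000832). Their scores were 408, 224, 159, 669 and 191. In score they ranked 25, 86, 182, 8 and 125 of the 696, so all lay in the upper part of the scores, and neither peak at 3100 was among them. The 5 narrowest were 275 to 347 bp wide, and all but the one near 87.2 Mb scored below 100, from 61.2 to 86.9.

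Peaks on chromosome 11 lay near one another more often than on most autosomes. Of the 696, 214 had another midpoint within 10 kb, which is 30.7% (27.3 to 34.3). The share was 18.7% (17.8 to 19.6) on the others pooled, and it ran up to 28.8% (24.5 to 33.5) on chromosome 17 and 26.1% (21.4 to 31.2) on chromosome 13, whose intervals overlap that of chromosome 11. Chromosome 13 had only 2.76 peaks per Mb. Across the other autosomes the share also varied with density, as the plot of autosomal measures shows, and the part of density in the value was not tested. Within 100 kb the share was 84.2% (81.3 to 86.8), the highest of the 19. Merging peaks separated by up to 1 kb lowered the 10 kb share to 23.6%. On chromosome 11, 35 pairs of consecutive peaks (5.04% of pairs) were separated by up to 1 kb from end to start, compared with 3.87% on the others. Chromosomes 13 and 3 had higher shares of such pairs, 8.72% and 5.80%. Over the full bins with at least 5 peaks, the 10 kb share ran from 0 to 56.4%, with its highest value from 65 to 70 Mb.

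**Figure D4:**
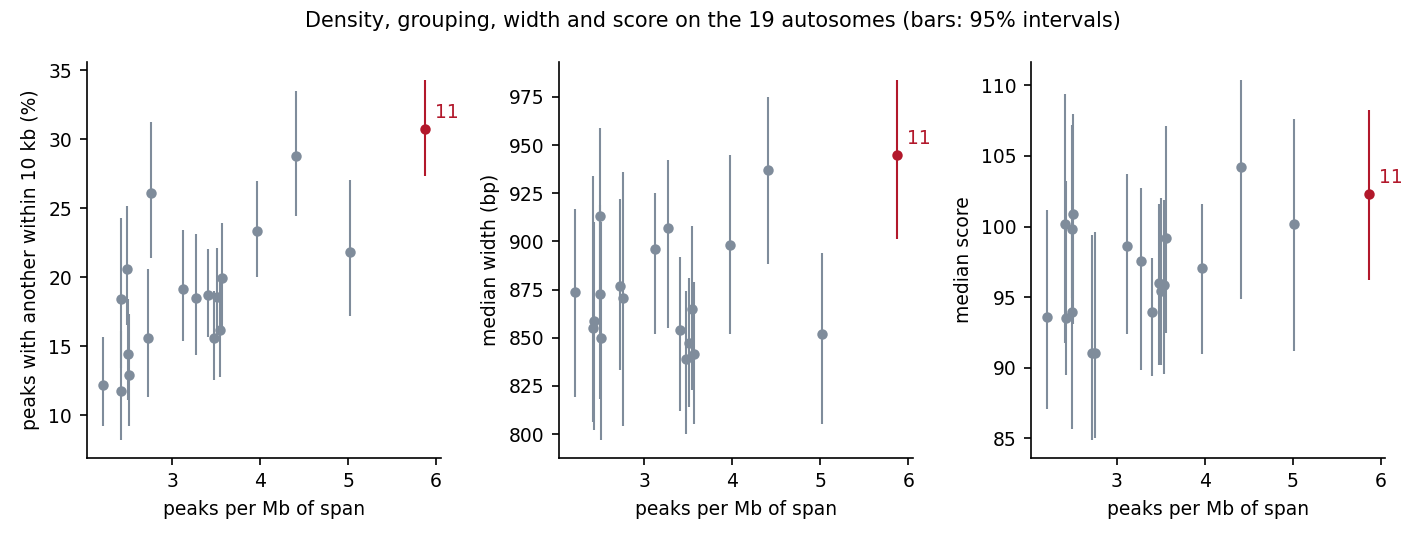
Share of peaks with another within 10 kb (left, in %), median width (middle, in bp) and median score (right) against peaks per Mb of span, with 1 point per autosome and 95% intervals. Chromosome 11, in red, has the highest density at 5.87 per Mb, the highest share at 30.7% and the widest median at 945 bp, and its median score of 102 is second to that of chromosome 17.

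The most crowded 1 Mb lay from 68829124 to 69814638, where 48 peaks made up 6.9% of those on the chromosome. The most in any 1 Mb of another autosome was 40, on chromosome 10. The 48 peaks scored 60.2 to 3100 with a median of 123, and 29 of them reached 100. Their median width was 1147 bp. Consecutive midpoints were a median of 12.8 kb apart, and the longest distance was 207 kb. Another peak lay within 10 kb of 31 of the 48.

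Within this stretch the peaks formed 4 runs, a run being peaks each within 50 kb of the next. The first run, from 68829124 to 68939198, had 10 peaks with a median score of 154 and included those at 430 and 635. The second, from 69145403 to 69270887, had 11 peaks, none at 300, and a median of 96.1. It holds the most crowded 100 kb of the chromosome, with 10 peaks from 69145403 to 69232965 that scored 61.2 to 265, and the narrowest peak of the chromosome, at 275 bp. Chromosomes 13 and 6 held more peaks in their most crowded 100 kb, 14 and 11, and chromosome 19 also held 10. The third run, from 69360368 to 69509879, had 12 peaks with a highest score of 244. The fourth, from 69571373 to 69835748 and so ending just beyond the 1 Mb stretch, had 16 peaks with a median of 163, one at 549 and one at 3100. The peaks beside the one at 3100 were far lower: 168 before it, and 257, 117 and 157 after it within 10 kb.

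**Figure D5:**
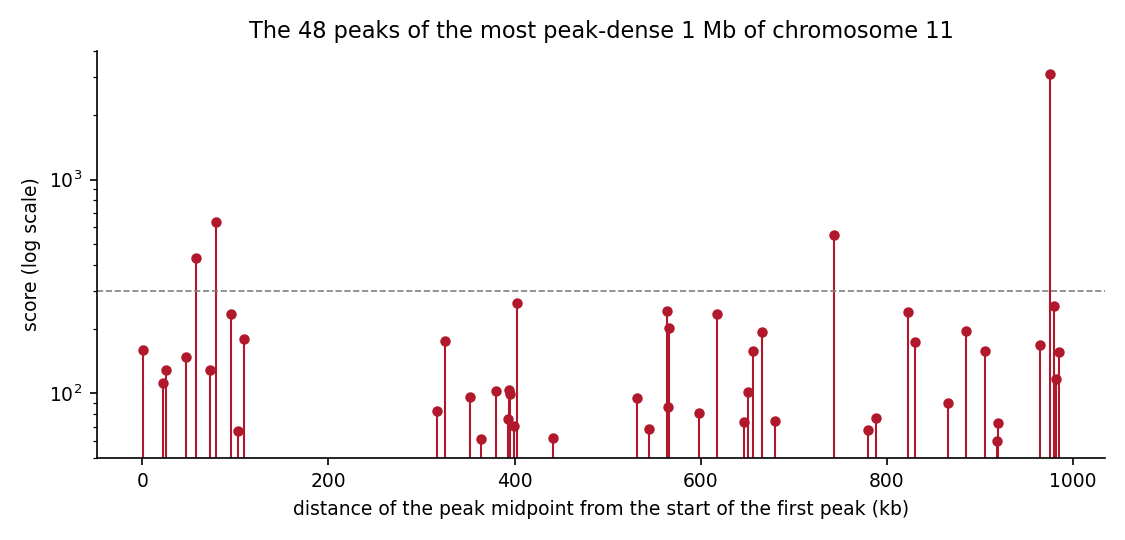
Score, on a log scale, of each of the 48 peaks in the most crowded 1 Mb of chromosome 11, against the distance of its midpoint from the start of the first peak in kb, with a dashed line at a score of 300. Of the peaks, 4 stand above the line, and the one at 3100 is near the distal end of the stretch.

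Chromosomes 11 and 7 each held 22 runs of 5 or more peaks, the most of the 19 autosomes. Such runs held 24.1% of the peaks on chromosome 11, which ranked 3 of the 19, below 27.3% on chromosome 17 and 26.2% on chromosome 7. The largest run of chromosome 11, with 16 peaks, was smaller than those of chromosome 7, with 21, and chromosome 10, with 20. Runs of 10 or more peaks numbered 6 on chromosome 11 and 17 on the other 18 autosomes together, with at most 3 on any one of them. The other 2 runs on chromosome 11 had 10 peaks each, from 77794866 to 78003373 with scores of up to 310 and from 96112031 to 96216270 with scores of up to 370. The latter had a median score of 164 and ends in the peak of 3627 bp. Single peaks, with no other within 50 kb, were 31.8% of the peaks on chromosome 11. On the other autosomes this share ran from 30.8% on chromosome 17 to 61.0% on chromosome 1.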

How the data were processed

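ChIP-seq of p53 in kidney at E15.5 gave 1 peak list. Per the file header and the submitters' processing notes, the authors called peaks with MACS in mm9. Which aligner, MACS version, settings and control were used is not given in the sources used here. The deposited score, 1 per peak, has the form of a scaled log p-value, and its scale is not stated. The list holds no read counts, so depth is unknown. The other deposited values, start and end, are in bp, with starts shifted to be 1-based.

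Chromosome 11 peaks were counted in 5 Mb bins by midpoint. Density used the span from first to last peak, as no mm9 genome was used. Intervals are exact Poisson (rates), Clopper-Pearson (shares) and order-statistic (medians). The counting functions were tested on simulated data. Protein-coding genes per chromosome come from RefSeq's GRCm38.p6 table, with none of its coordinates used. The peaks named are the 10 highest-scoring, 5 widest and 5 narrowest, the top peak of the 3 fullest and 3 emptiest full bins, the most crowded 100 kb and the 5 longest stretches without a peak. The comparisons of runs, of the group of high-scoring peaks near 87.2 Mb, of the most crowded 1 Mb and of score classes were added later. So were the sections of the chromosome that join several bins. The chromosome and the rules were chosen with earlier results of these data known. No tests were run, since peaks of 1 library are not replicates. Python 3.11.15, numpy 2.4.6, pandas 2.3.3, scipy 1.17.1 and matplotlib 3.10.9 were used.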

Additional observations from a re-analysis of the deposited data

How the results depend on the processing

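Of 40 values under alternatives, 26 stayed within the interval of the value as reported and 14 moved outside it. Chromosome 11 kept the highest density among the 19 autosomes under each alternative run for it. The alternatives reuse peaks of the same list by which the chromosome was chosen, so this rank is no separate support. With peaks scoring at least 100 only, it had 3.02 peaks per Mb, 22.2 per 100 genes (then the highest of the 19), a median score of 159, a median width of 1141 bp, 12.8% of peaks at 300 or more (then 4th of the 19), 18.7% with another within 10 kb (then second), 2.4 peaks per Mb in the median full bin and 7.4 in the fullest bin, which was then the one from 115 Mb. Fewer peaks and a higher floor follow from the filter itself. Leaving out the densest 20% of full bins gave 3.81 peaks per Mb. Merging peaks within 1 kb gave 23.6% with another within 10 kb. A distance of 1 kb gave 4.31% (then second) and one of 100 kb 84.2%. The fullest bin held 21.6 peaks per Mb with bins of 2.5 Mb (from 67.5 Mb) and 10.3 with bins of 10 Mb (from 100 Mb). The median full bin went from 4.4 to 6.7 peaks per Mb with bins of 10 Mb, more than 1.5 times but within its wide interval (2.6 to 7.6). Alternatives chosen after the data were examined were the peaks with no other within 10 kb, the densest bins left out and each autosome without its densest 1 Mb. Among the peaks with no other within 10 kb, the share at 300 or more on chromosome 11 was 5.19%, eighth of the 19. No paired analysis was possible because there is only 1 library of each kind. Read depth cannot be read from the list, so how many peaks near the lowest score more reads would add cannot be judged.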
